A study of Mus musculus with 18 samples.

Results

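Neutrophils of the Spleen were compared with neutrophils of the bone marrow (BM) through 3 sorted libraries of each, which are 6 of the 18 libraries of a study of neutrophils that also covered Blood, Lung, Intestine and Skin. Membership follows the tissue named in the labels, and no measured value was used to choose the libraries. Both groups came from adult C57BL/6 mice aged 8 to 12 weeks, and the labels name no treatment, altered gene or sex. Cells of both tissues were stained for CD45, CD11b and Ly6G and with the viability dye DAPI, and neutrophils were sorted at purities that typically exceeded 95%. The question the study asks is how neutrophils differ from tissue to tissue, and this pair sets the organ in which neutrophils are made against a lymphoid organ into which they pass from the blood. The labels do not say whether the 3 libraries of a tissue came from separate animals, so the p-values measure the spread between libraries, which may be technical.

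Neutrophils arise in bone marrow from proliferating promyelocytes and myelocytes and fill their granules in a fixed order: azurophil granules with myeloperoxidase and serine proteases first, then specific granules with lactoferrin and antimicrobial peptides, then gelatinase granules and secretory vesicles. Each granule protein is made while the cell is at the matching stage, and transcription of most granule genes stops as the nucleus becomes segmented. The C/EBP family of transcription factors, C/EBP-epsilon above all, is required for the specific granule genes. The spleen filters the blood, holds neutrophils in its red pulp and marginal zone, and is rich in B cells, which carry MHC class II molecules and immunoglobulin.

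The values are scaled counts: estimated read counts per gene, plus 0.5, scaled by an effective size of the library and not divided by gene length, so levels of different genes are not compared. Estimated counts totalled 8.54e+06 to 9.99e+06 in BM and 8.72e+06 to 1.21e+07 in Spleen. A gene is called higher or lower where limma's moderated test on log2(scaled count + 1) gave an adjusted p under 0.05, and every difference below is Spleen minus BM on that scale, which understates the change of low genes. BM replicate 2 stood apart: it detected the fewest genes (11860, against 13700 to 16189 in the other 5) and had the largest residual SD (1.06 on the log2 scale, against 0.527 to 0.819). BM libraries differed from each other by 1.18 to 1.74 (root mean square over genes, log2), Spleen libraries by 0.804 to 1.17, and libraries of the 2 tissues by 0.954 to 1.93. Ptprc, which encodes the sorting antigen CD45, was at 6101, 6328 and 4542 scaled counts in the 3 Spleen libraries and at 5038, 4378 and 4685 in BM, a difference of 0.25 ± 0.27 (SE) that did not pass. The other sorting antigens, Ly6g and Itgam, were lower in Spleen and are described with the identity genes.

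Of 12340 genes tested, 381 passed (3.09%): 114 were higher in Spleen (0.924%) and 267 were lower (2.16%). Lower genes were led by specific granule genes, whose mean levels in BM were up to 149 times those in Spleen. Higher genes were led by B-cell markers and MHC class II genes, and also held immediate early genes and the cytokine gene Il1b. The tissues did not overlap in any library for 2765 genes (22.4%), 1426 of them higher and 1339 lower, and all 381 genes that passed were among these. The median absolute difference was 3.14 among genes that passed as higher and 1.76 among those that passed as lower, and the median difference over all tested genes was 0.15. Of the 12340 differences, 7075 were positive and 5265 negative, which is the background for the sign counts of lists below. The shares of 0.924% higher and 2.16% lower are the background for their counts of calls.

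**Figure D1:**
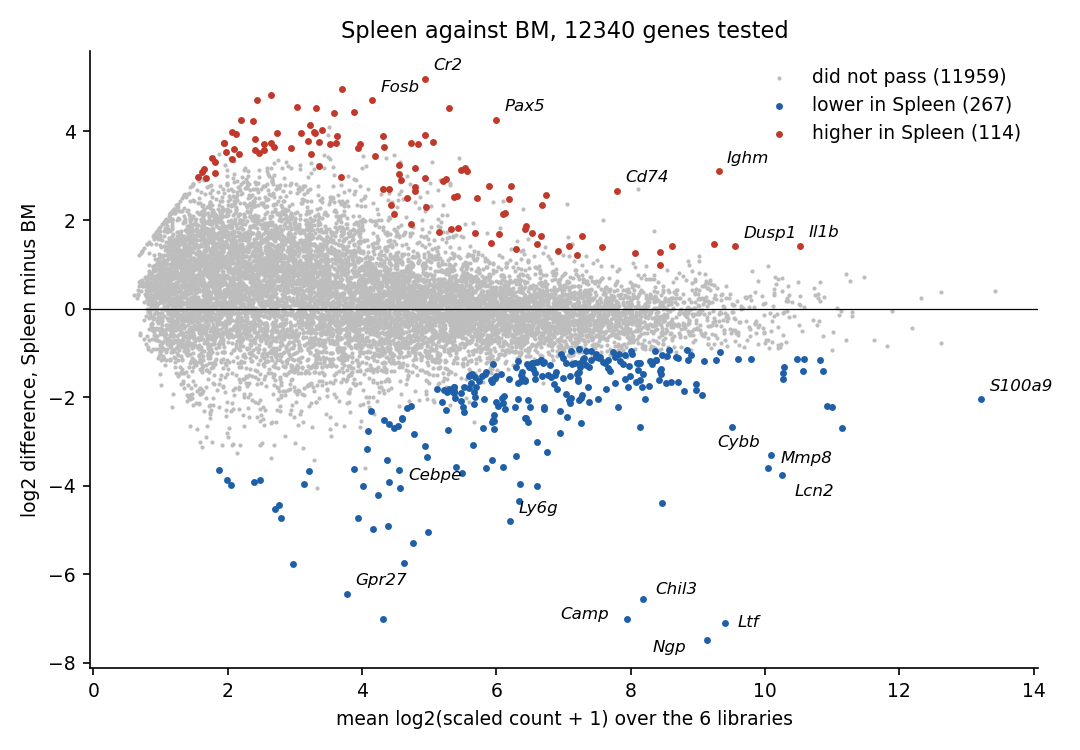
Difference between Spleen and BM (y axis, log2, Spleen minus BM) against the mean level over the 6 libraries (x axis, mean of log2(scaled count + 1)) for 12340 genes, 1 point per gene. Red points are the 114 genes that passed as higher in Spleen, blue points the 267 that passed as lower, and grey points did not pass; specific granule genes (Ngp, Ltf, Camp, Chil3) form the lowest points at high mean levels.

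The split between directions depended on the scaling and on single libraries. After quantile normalization 189 genes were higher and 258 lower, and the median over all genes moved from 0.15 to 0.01. Without BM replicate 2, 157 were higher and 195 lower. Fewer passed without Spleen replicate 1 (30 higher, 161 lower), Spleen replicate 2 (66 and 224), Spleen replicate 3 (35 and 195) or BM replicate 1 (102 and 165). With all 18 libraries in the fit 62 genes passed (27 and 35), and with a prior without a trend 73 (32 and 41). The lower calls among chemoattractant receptors, adhesion and glycolysis genes and the higher calls among cytokine and ribosomal protein genes, described below, were all lost under both. Calls of G6pdx, Tkt, Vcl, Capg, Socs3, Tsc22d3, mt-Nd2, mt-Nd5 and mt-Nd6, also described below, were lost under both too.

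Specific granule genes had the lowest median difference of the 28 lists of neutrophil and cell functions examined. Of 19 tested genes of this list 14 were lower in Spleen and 0 higher; all 19 differences were negative, with a median of -3.43 against 0.15 over all genes. The summed level of the 20 listed genes was 2853, 3786 and 4916 in Spleen and 37981, 51861 and 41468 in BM. In libraries of mixed cells, fewer cells of a stage and less RNA per cell cannot be told apart.

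The genes Ngp, Ltf, Lcn2 and Fcnb are shown by the 250 bases before the transcription start, because their promoters hold a match to a core of the C/EBP element, TTGCNNAA, and Ngp and Ltf had the lowest differences of the list. The sequences are from RefSeq for GRCm38.p6, written 5′ to 3′ in the direction of the gene, with each match on either strand in capitals.
Ngp, chr9:110419558-110419807, forward strand: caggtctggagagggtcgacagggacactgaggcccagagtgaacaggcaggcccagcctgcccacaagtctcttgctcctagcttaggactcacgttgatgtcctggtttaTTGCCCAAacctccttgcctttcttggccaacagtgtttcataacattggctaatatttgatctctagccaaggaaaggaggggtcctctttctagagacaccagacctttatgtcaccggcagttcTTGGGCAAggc
Ltf, chr9:111019042-111019291, forward strand: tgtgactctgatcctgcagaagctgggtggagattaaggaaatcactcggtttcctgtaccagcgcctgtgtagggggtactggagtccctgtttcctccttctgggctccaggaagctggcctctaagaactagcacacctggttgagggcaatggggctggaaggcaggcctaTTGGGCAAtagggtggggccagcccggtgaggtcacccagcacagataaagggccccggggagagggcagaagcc
Lcn2, chr2:32387740-32387989, reverse strand: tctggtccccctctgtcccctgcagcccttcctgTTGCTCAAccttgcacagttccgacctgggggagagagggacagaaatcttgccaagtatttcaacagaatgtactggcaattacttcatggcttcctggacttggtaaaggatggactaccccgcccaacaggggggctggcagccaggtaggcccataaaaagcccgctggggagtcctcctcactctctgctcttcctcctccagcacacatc
Fcnb, chr2:28084879-28085128, reverse strand: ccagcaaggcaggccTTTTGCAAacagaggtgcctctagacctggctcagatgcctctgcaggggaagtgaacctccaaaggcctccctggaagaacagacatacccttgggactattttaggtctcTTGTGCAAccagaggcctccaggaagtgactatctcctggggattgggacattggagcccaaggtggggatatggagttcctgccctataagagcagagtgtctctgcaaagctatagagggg
All 14 lower genes of the list had a promoter in that table, and 5 held a match (Ngp, Ltf, Lcn2, Fcnb and Mmp8), while 9.56% of all 32851 promoters in the table held one in a window of the same length. The match of Ltf begins 75 bases before the start and that of Lcn2 begins 216 bases before it; Ngp has matches at 138 and 11 bases and Fcnb at 235 and 123. A match describes these letters only.

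Ngp, which encodes neutrophilic granule protein, was at 101, 31.0 and 21.8 scaled counts in the Spleen libraries and at 5762, 8987 and 8189 in BM. The highest Spleen library lay far under the lowest BM library, the means differed 149-fold and the difference was -7.48 ± 0.43 (SE, adjusted p = 6.67e-07). Ltf, the gene of lactoferrin, an iron-binding antimicrobial protein, was at 96.4, 56.5 and 33.8 in Spleen and at 7910, 8184 and 7753 in BM (-7.10 ± 0.31, adjusted p = 6.03e-08). Camp, which encodes the cathelicidin peptide precursor, was at 34.7, 21.1 and 12.3 in Spleen and at 2541, 3119 and 2758 in BM (-7.00 ± 0.31, adjusted p = 6.03e-08). All 3 genes lie on chromosome 9, and each was highest in Spleen replicate 1. In Blood they lay between the tissues, at 562 ± 422 for Ngp, 567 ± 495 for Ltf and 134 ± 104 for Camp (SD, n = 3).

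The same order of tissues was seen for Chil3, which encodes a chitinase-like secreted protein: 40.3, 17.9 and 33.8 in Spleen, 2248, 3891 and 2537 in BM and 165 ± 112 in Blood (SD, n = 3; -6.55 ± 0.31, adjusted p = 8.56e-08). Lcn2, the gene of the siderophore-binding lipocalin, was at 207, 349 and 508 in Spleen and at 3392, 5463 and 4967 in BM, a 13-fold difference of means (-3.76 ± 0.32, adjusted p = 2.45e-05). Mmp8, the neutrophil collagenase, was at 244, 304 and 379 in Spleen and at 3935, 4470 and 2833 in BM (-3.59 ± 0.25, adjusted p = 4.60e-06). The Spleen and BM libraries did not overlap in any of these 3 genes, as in all 381 that passed and 22.4% of all tested.

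Cd177, which encodes a surface glycoprotein that is also held in specific granules, was at 60.1, 65.3 and 112 in Spleen and at 1370, 2000 and 1524 in BM (-4.38 ± 0.27, adjusted p = 1.44e-06). Itgb2l, an integrin beta-2-like gene of late marrow neutrophils, was at 1.82, 1.64 and 4.11 in Spleen and at 195, 210.0 and 143 in BM (-5.75 ± 0.49, adjusted p = 2.45e-05). Fcnb, the gene of ficolin B, a lectin of immature myeloid cells, was under 1 in each Spleen library and at 37.8, 27.3 and 28.1 in BM (-4.43 ± 0.80, adjusted p = 0.00878). Fits without a BM library could not test Fcnb, and 3 of the 17 alternatives that could lost its call (adjusted p up to 0.0666). Olfm4, the gene of olfactomedin 4, was at 14.6, 14.9 and 24.6 in Spleen and at 157, 251 and 202 in BM (-3.43 ± 0.34, adjusted p = 9.95e-05). No Spleen library overlapped the BM libraries in any of these 4 genes, as in all 381 that passed.

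Among the 14 genes that passed, the smaller differences were those of Lyz2, the lysozyme gene of myeloid cells, at -2.69 ± 0.28 (adjusted p = 0.000176), and of Ceacam1 and Ceacam10, carcinoembryonic antigen family members, at -1.78 ± 0.28 and -1.76 ± 0.38. The smallest difference among all 19 tested was -0.39, in a gene that did not pass. Cybb, whose product is stored in the specific granule membrane, is described with the oxidase. Ceacam10 was the member whose call rested most on single libraries: its adjusted p was 0.0239 with all 6, and 0.0721, 0.0523, 0.0877 and 0.0526 without BM replicate 1, BM replicate 2, Spleen replicate 1 and Spleen replicate 3. The number of lower genes in the list was 12 to 14 when 1 library was left out, and 8 when all 18 libraries of the series shared the fit.

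**Figure D2:**
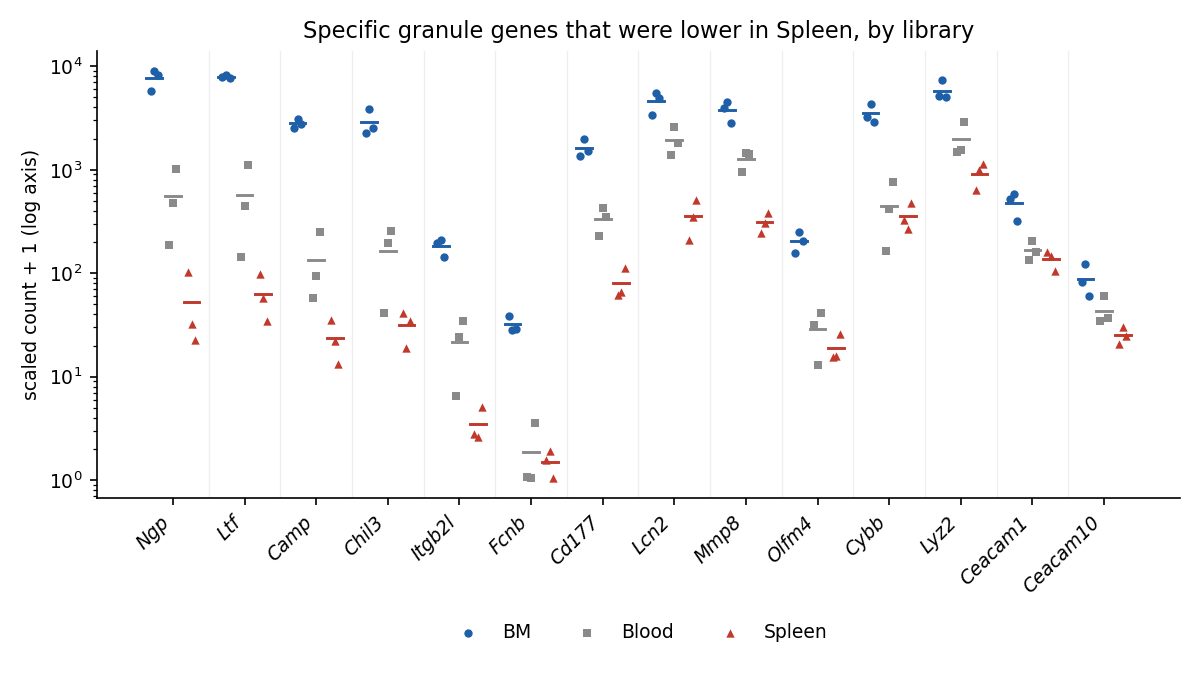
Scaled counts plus 1 (y axis, log scale) of the 14 specific granule genes that were lower in Spleen, by library in BM (circles), Blood (squares) and Spleen (triangles); lines are means of 3 libraries. In every gene the 3 Spleen libraries lie under the 3 BM libraries, from Ngp (149-fold between means) to Ceacam1 (3.5-fold). No gene that passed had overlapping tissues.

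Gelatinase granule and secretory vesicle genes were lower to a smaller extent. Of 14 tested, 6 were lower and 0 higher, and the median difference was -0.93. Mmp25, a membrane-bound matrix metalloproteinase, was at 27.9, 31.5 and 17.5 in Spleen and at 136, 141 and 169 in BM (-2.52 ± 0.33, adjusted p = 0.000868). Fpr1 and Fpr2, the formyl peptide receptors through which neutrophils sense bacterial products, differed by -2.07 ± 0.27 (adjusted p = 0.000871) and -1.75 ± 0.22 (adjusted p = 0.000681). Fpr2 was at 147 to 187 in Spleen, at 558, 641 and 514 in BM and at 516 ± 67.1 in Blood, and all 3 Spleen libraries lay under both other tissues. Mmp9, which encodes gelatinase B, was at 820.0, 1288 and 1406 in Spleen and at 2212, 3275 and 3831 in BM (-1.41 ± 0.29, adjusted p = 0.0179), and Padi4, the histone citrullinating enzyme, differed by -1.26 ± 0.27 (adjusted p = 0.0244). Only 3 of the 6 passed without BM replicate 2 or without Spleen replicate 1, and 4 passed without BM replicate 1 or without Spleen replicate 3. The count was 0 when all 18 libraries shared the fit and 0 when the prior had no trend with level. Mmp9 was among those lost (adjusted p = 0.0522 without BM replicate 2, 0.065 without BM replicate 3 and 0.0871 without Spleen replicate 1), as was Padi4 (0.0623, 0.064, 0.081 and 0.0832 without BM replicate 1, BM replicate 2, Spleen replicate 1 and Spleen replicate 3).

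Azurophil granule genes differed in part. Of 10 tested, 3 were lower in Spleen and 0 higher, and the median difference was -0.08, near that of all genes. Mpo, the gene of myeloperoxidase, was at 1.66, 1.57 and 0.622 in Spleen, at 32.5, 50.6 and 23.6 in BM and at 1.31 ± 1.08 in Blood (-3.97 ± 0.77, adjusted p = 0.0131). Serpinb1a, an inhibitor of neutrophil serine proteases, was at 40.1, 34.6 and 26.3 in Spleen and at 281, 351 and 213 in BM (-3.02 ± 0.29, adjusted p = 9.66e-05). Cd63, a tetraspanin of the azurophil membrane, was 2.5-fold lower (-1.33 ± 0.31, adjusted p = 0.0347), a call lost without BM replicate 2 or 3 or Spleen replicate 1 or 2 (adjusted p = 0.0922, 0.0736, 0.12 and 0.0861). The protease genes Elane and Prtn3, transcribed in promyelocytes, were too low to be tested: neither had a count in any Spleen library, and the BM libraries had 2.56, 9.66 and 0.0483 scaled counts for Elane, where 0.0483 is the value of 0 counts, and 2.77 in 1 library for Prtn3.

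Genes by which mouse neutrophils are usually recognised were lower in part. Of 23 tested, 8 were lower in Spleen and 0 higher, with a median difference of -0.48. Ly6g, which encodes the antigen used for sorting, was at 7.61, 12.0 and 23.3 in Spleen, at 291, 566 and 352 in BM and at 136 ± 89.0 in Blood (-4.80 ± 0.40, adjusted p = 2.28e-05). Both sets of libraries came from cells sorted on surface Ly6G, and the mean scaled count of Ly6g was 28.2-fold lower in Spleen. In libraries of mixed cells, fewer cells with the transcript and less transcript per cell cannot be told apart. Ly6g has related neighbours on chromosome 15, and reads may have been split between genes of this family. Ly6i (-4.22 ± 0.53, named after its values were seen) and Ly6c2 (-4.01 ± 0.31) were lower too. Ly6c1 (-0.30 ± 0.96), Ly6a (2.13 ± 0.86) and Ly6d (2.52 ± 0.80), on the same chromosome, did not pass. S100a8 and S100a9, whose products form calprotectin, were 4.6-fold and 4.09-fold lower: S100a9 was at 3483, 5192 and 5720 in Spleen and at 17666, 23159 and 17982 in BM (-2.05 ± 0.31, adjusted p = 0.00282). S100a9 in Blood was at 14190 ± 909, above all 3 Spleen libraries.

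Retnlg, a resistin-like gene of neutrophils, differed by -2.67 ± 0.36 (adjusted p = 0.00112), and Ifitm6, of the interferon-induced transmembrane family, by -3.97 ± 0.27 (adjusted p = 4.25e-06). Wfdc21 (-2.46 ± 0.45), Trem3 (-1.22 ± 0.24) and Pglyrp1 (-1.40 ± 0.26), which encodes a peptidoglycan recognition protein, completed the 8. Wfdc21 was not called without BM replicate 1 (adjusted p = 0.0593), nor Trem3 without Spleen replicate 1 (0.0554). The receptor genes Cxcr2 and Csf3r, which mark mature neutrophils, did not pass. Cxcr2, which guides neutrophils out of the marrow, was at 1357, 1852 and 1706 in Spleen and at 1690, 1996 and 2249 in BM (-0.27 ± 0.24, adjusted p = 0.617). Csf3r, the receptor for granulocyte colony-stimulating factor, was at 3708, 4864 and 2690 in Spleen and at 2213, 1856 and 2717 in BM (0.71 ± 0.28, adjusted p = 0.225), with overlapping groups. Of the 23 identity genes, 1 passed when all 18 libraries shared the fit.

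**Figure D3:**
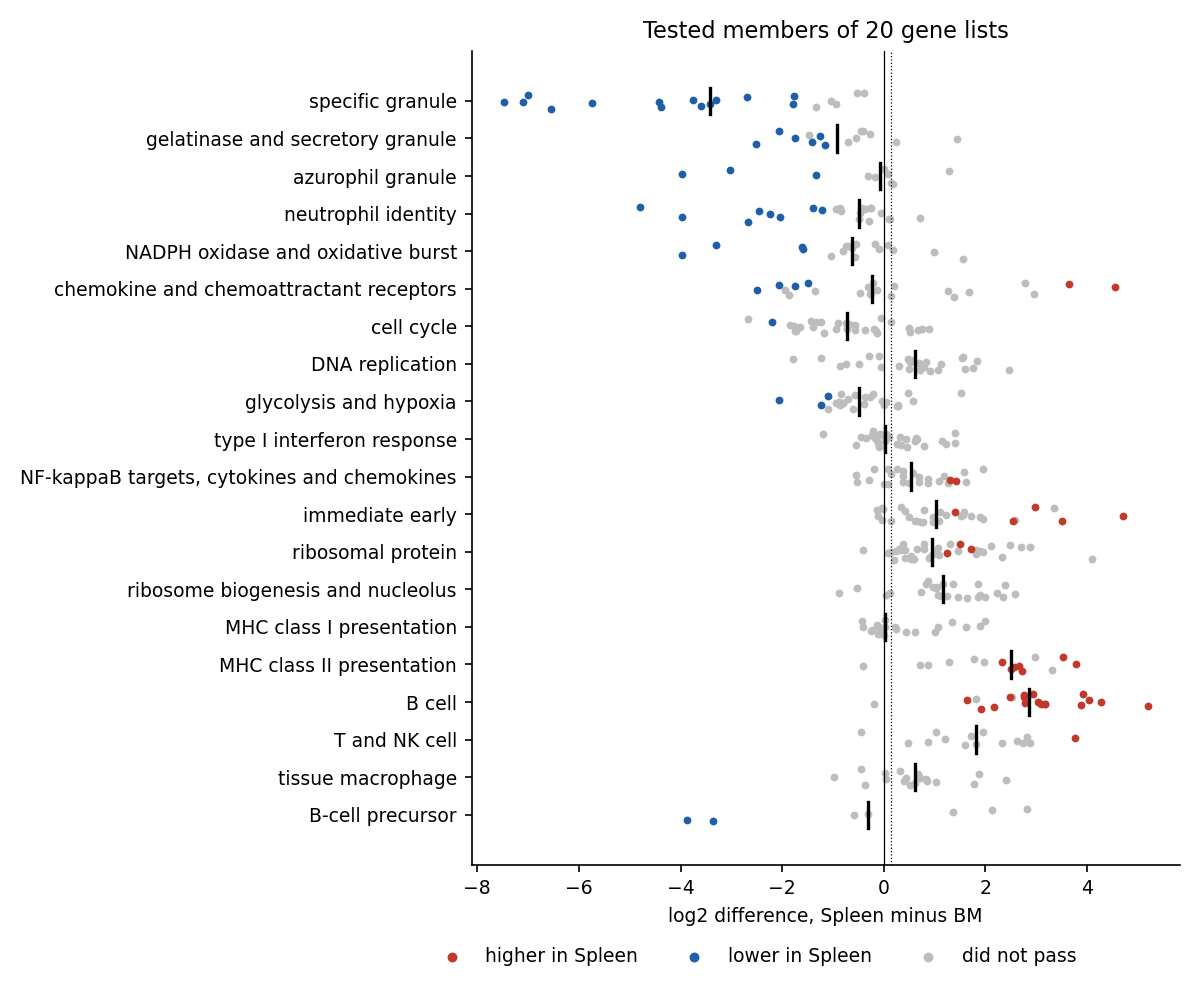
Difference between Spleen and BM (x axis, log2) of each tested member of 20 gene lists (rows), 1 point per gene; red passed as higher in Spleen, blue as lower, grey did not pass. Black bars are list medians, the solid line is 0 and the dotted line is the median of all genes (0.15); the specific granule list lies farthest to the left (median -3.43) and the B-cell list farthest to the right (median 2.85).

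Transcription factor genes of the lineage gave few calls. Of 24 tested, 2 were lower and 1 was higher. Cebpe, which encodes C/EBP-epsilon, was at 4.52, 4.47 and 5.53 in Spleen, at 73.9, 138 and 86.0 in BM and at 7.26 ± 7.22 in Blood (-4.05 ± 0.48, adjusted p = 0.000474). Lmo4, a LIM-domain cofactor, was at 174 to 222 in Spleen and at 596 to 783 in BM (-1.69 ± 0.22, adjusted p = 0.00101). Irf8, a factor of monocytes, dendritic cells and B cells, was at 73.0, 53.4 and 90.2 in Spleen and at 12.8, 0.0571 and 11.4 in BM (3.66 ± 0.85, adjusted p = 0.0328). Irf8 was not called without BM replicate 1 (adjusted p = 0.0514) or without Spleen replicate 1, 2 or 3 (0.101, 0.0525 and 0.139). Irf8 is itself in the dendritic cell marker list. The B-cell and dendritic cell sums, given below, were higher in the same libraries, and their part in the Irf8 difference was not tested.

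Genes of the oxidative burst were lower in part. Of 17 tested, 4 were lower and 0 higher (median -0.63). Cybb, the catalytic subunit of the phagocyte NADPH oxidase, was at 323, 268 and 479 in Spleen and at 3257, 4356 and 2899 in BM, and at 445 ± 298 in Blood (-3.31 ± 0.27, adjusted p = 1.68e-05). Ncf1, the cytosolic organiser subunit, was at 614, 897 and 641 in Spleen and at 1863, 1917 and 2756 in BM (-1.60 ± 0.25, adjusted p = 0.00332). Prdx5, a peroxiredoxin, was 3.10-fold lower (-1.61 ± 0.27, adjusted p = 0.00613), and Mpo is the fourth member. The count of 4 was 1 when all 18 libraries shared the fit.

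Receptors for chemoattractants moved in both directions. Of 22 tested, 4 were lower and 2 higher. Beside Fpr1 and Fpr2 the lower ones were Ltb4r1, the receptor for leukotriene B4, at 9.08, 14.7 and 5.72 in Spleen and 43.0, 80.5 and 52.0 in BM (-2.5 ± 0.51, adjusted p = 0.019; 0.056 without BM replicate 1), and S1pr4, a sphingosine phosphate receptor (-1.49 ± 0.37, adjusted p = 0.0495). S1pr4 passed without Spleen replicate 3 but not without any of the other 5 libraries (adjusted p = 0.0593 to 0.219). The higher ones were Cxcr5 and Ccr7, which guide lymphocytes to follicles and T-cell zones. Cxcr5 was at 31.7, 30.7 and 59.5 in Spleen, at 2.14, 0.171 and 0.338 in BM and at 50.1 ± 44.9 in Blood (4.55 ± 0.81, adjusted p = 0.0082; 0.0521 without Spleen replicate 3). Ccr7 was at 21.1 to 23.7 in Spleen and at most 1.66 in BM (3.65 ± 0.82, adjusted p = 0.0291), and passed without BM replicate 2 but not without any other library (0.055 to 0.128). B-cell markers were higher in the same libraries (17 of 20 tested, sum 2873 to 5257 in Spleen and 311 to 953 in BM). The T and NK cell marker sum was 179 to 217 in Spleen and 52.6 to 103 in BM. The part of either in the Cxcr5 and Ccr7 differences was not tested. Cxcr4, the receptor that retains neutrophils in the marrow, did not pass (402, 386 and 438 in Spleen; 305, 416 and 396 in BM; 0.14 ± 0.22).

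Among 22 adhesion genes tested, Itgam, Cd47 and Cd24a were lower and Pecam1 was higher. Itgam, the CD11b integrin subunit used for sorting, was at 1258, 1452 and 962 in Spleen and at 2835, 2911 and 2353 in BM (-1.15 ± 0.24, adjusted p = 0.0215). Cd24a, a surface glycoprotein that is high on immature neutrophils, was at 821, 918 and 1062 in Spleen and at 1959, 2946 and 2601 in BM (-1.41 ± 0.24, adjusted p = 0.00634). Cd47, which encodes the ligand that restrains phagocytosis, differed by -0.97 ± 0.21 (adjusted p = 0.0267). Itgam was not called without BM replicate 1 or 2 or Spleen replicate 1 or 3 (0.0605, 0.0624, 0.0644 and 0.139), Cd47 without BM replicate 2 or 3 or Spleen replicate 1 or 3 (0.0673, 0.0717, 0.1 and 0.118). Pecam1, shared by leukocytes and endothelium, was at 74.0, 42.8 and 97.2 in Spleen and at 23.4, 12.9 and 6.99 in BM (2.30 ± 0.51, adjusted p = 0.0274; 0.133 and 0.159 without Spleen replicates 1 and 3). The part of the B-cell markers, with the sums just given, in the Pecam1 difference was not tested.

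The 2 proliferation lists gave 1 call, and the share called of the cell cycle list (3.23%) was near that of all genes (3.09%). Of 31 cell cycle genes tested, 25 had a negative difference (median -0.73) and 1 passed: Top2a, the topoisomerase of dividing cells, at 35.1, 29.4 and 24.3 in Spleen, 119, 176 and 129 in BM and 2.36 ± 2.23 in Blood (-2.21 ± 0.31, adjusted p = 0.00152). The Top2a call was lost with all 18 libraries in the fit, without the Skin libraries and with a prior without a trend (adjusted p up to 0.477). Mki67, the gene of the Ki-67 antigen, was at 153, 157 and 75.9 in Spleen and at 326, 231 and 174 in BM, without overlap, but did not pass (-0.94 ± 0.33, adjusted p = 0.157). Of 28 DNA replication genes tested, 0 passed in limma (3 at an unadjusted p under 0.05, 0 with voom weights), and their median was on the other side (0.62).

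Glycolysis genes followed the lower genes in part. Of 26 tested, 3 were lower and 0 higher (median -0.48). Pgam1, phosphoglycerate mutase, was at 36.9, 49.6 and 41.6 in Spleen and at 145, 184 and 220.0 in BM (-2.06 ± 0.28, adjusted p = 0.00124). Gpi1, glucose phosphate isomerase, and Hk1, hexokinase, differed by -1.09 ± 0.24 (adjusted p = 0.0278) and -1.24 ± 0.29 (adjusted p = 0.0375), and each lost its call in 5 of the 6 fits that left out 1 library (Gpi1 at 0.0506 to 0.139, all but the fit without Spleen replicate 3; Hk1 at 0.0624 to 0.129, all but that without Spleen replicate 2). In lipid synthesis (24 tested) Scd1, the stearoyl-CoA desaturase, was higher at 145, 116 and 156 in Spleen against 17.7, 39.2 and 4.66 in BM (3.10 ± 0.56, adjusted p = 0.00927; 0.051 without BM replicate 1). The B-cell sum was 2873 to 5257 in the same Spleen libraries and 311 to 953 in BM, and its part in the Scd1 difference was not tested. Msmo1, a methyl sterol oxidase, was lower (-1.76 ± 0.37, adjusted p = 0.0217; 0.0712, 0.0685 and 0.0562 without BM replicate 1, Spleen replicate 2 and Spleen replicate 3).

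Among Fc and paired receptors 3 of 21 were lower and 0 higher, all of them C-type lectins encoded on chromosome 6. Clec12a, an inhibitory receptor, was at 136, 142 and 138 in Spleen and at 428, 453 and 372 in BM (-1.58 ± 0.22, adjusted p = 0.00124). Clec5a, an activating receptor that pairs with DAP12, was at 131, 184 and 170.0 in Spleen and at 595, 468 and 434 in BM (-1.62 ± 0.24, adjusted p = 0.00195). Clec4a2, an inhibitory receptor, differed by -2.02 ± 0.31 (adjusted p = 0.003). All 3 calls were lost when all 18 libraries shared the fit and when the prior had no trend with level (adjusted p up to 0.618, 0.622 and 0.66).

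B-cell markers were higher in Spleen and stood in the same libraries as every higher gene group that follows. Of 20 tested, 17 were higher and 0 lower, with a median difference of 2.85. Their summed level was 5257, 2873 and 4464 in Spleen, 815, 953 and 311 in BM and 141, 145 and 252 in Blood. Pax5, the transcription factor that fixes B-cell identity, was at 336, 226 and 288 in Spleen, 33.0, 15.9 and 4.40 in BM and 0.75 ± 1.20 in Blood (4.27 ± 0.53, adjusted p = 0.000591). Cr2, the complement receptor CD21 of mature and marginal zone B cells, had the largest difference of the list, at 175, 163 and 220.0 in Spleen and 13.1, 0.0571 and 7.78 in BM (5.19 ± 0.76, adjusted p = 0.00191).

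Cd79a, a signalling chain of the B-cell receptor, was at 162, 136 and 323 in Spleen and at 30.4, 32.3 and 21.2 in BM (2.76 ± 0.36, adjusted p = 0.000887). Ighm, the constant gene of the IgM heavy chain, was at 2853, 1187 and 1896 in Spleen and at 317, 499 and 63.0 in BM (3.10 ± 0.58, adjusted p = 0.0106). Immunoglobulin gene segments together took 0.785%, 0.28% and 0.53% of the estimated counts in Spleen, 0.14%, 0.177% and 0.0157% in BM and at most 0.017% in Blood. BM replicates 1 and 2 thus held more of this RNA than BM replicate 3, and Spleen replicate 2 the least of its tissue. Other higher markers included Ikzf3, Cd79b, Ms4a1, Ebf1, Blk, Fcer2a, Fcmr, Bank1, Ighd, Cd22, Pou2af1 and Btla. The count of 17 fell to 10 without Spleen replicate 1 and to 10 without Spleen replicate 3, and was 5 with all 18 libraries in the fit, 2 with no filter on low values and 0 when the prior had no trend with level.

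Markers of other cells gave fewer calls. All 8 tested dendritic cell markers had a positive difference (median 1.29), and Irf8, described above, was the 1 that passed; their sum was 422, 347 and 324 in Spleen, 179, 141 and 204 in BM and 119, 185 and 141 in Blood. T and NK cell markers had a median of 1.81 over 15 tested, but only Cd2, which some B cells share, passed (3.77 ± 0.91, adjusted p = 0.0401, lost without BM replicate 3 or any Spleen library, 0.0621 to 0.204); their sum was 179 to 217 in Spleen and 52.6 to 103 in BM. Of 19 tissue macrophage markers 0 passed in limma (3 at an unadjusted p under 0.05, 0 with voom weights; median 0.62; sum 1759 to 2164 in Spleen, 1256 to 1697 in BM), and C1qa, C1qb and C1qc, complement genes of resident macrophages, were at or under 8.04 in each of the 6 libraries. Monocyte markers had 9 positive and 6 negative differences among 15 tested (median 0.21). Only Ly6c2 passed, as lower (6.67% called, against 3.09% of all genes). Of 7 B-cell precursor markers tested, 2 were lower and 0 higher, with 3 positive differences, 4 negative ones and a median of -0.32. The 2 were Erg (-3.36, adjusted p = 0.00122) and Rag1. Rag1, the recombinase gene of lymphocyte precursors, had 0 counts in each Spleen library and 7.77, 30.8 and 11.5 scaled counts in BM, so its means differed at least 58.5-fold by the floor of 3 counts per library (adjusted p = 0.0233; 0.111, 0.0912 and 0.0849 without Spleen replicate 1, 2 or 3). Fits without a BM library could not test Rag1. Of 8 eosinophil, basophil and mast cell markers tested, 1 was lower and 0 higher, with 3 positive differences, 5 negative ones and a median of -0.29. The lower one was Ear2, an eosinophil-associated ribonuclease, at 7.69, 5.56 and 0.142 in Spleen and 50.2, 107 and 47.2 in BM (-4.00 ± 0.79, adjusted p = 0.0147). Ear2 was not called without BM replicate 1 (adjusted p = 0.0625). Erythroid, progenitor and bone marrow stroma markers gave 0 calls among 6, 10 and 6 tested in limma (1, 4 and 1 at an unadjusted p under 0.05, 0 with voom weights). Platelet markers had 4 positive and 3 negative differences among 7 tested (median 0.48). Of these Itgb3, an integrin subunit, was lower (-1.24 ± 0.30, adjusted p = 0.0425), but not without BM replicate 1 or 3 or Spleen replicate 1 or 3 (0.109, 0.107, 0.1 and 0.144). Of 11 plasma cell markers only Tnfrsf13b, the receptor TACI of B and plasma cells, was higher (3.62 ± 0.82, adjusted p = 0.0297), and not without any 1 Spleen library (0.0788 to 0.141).

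MHC class II genes were higher together with the B-cell markers. Of 15 tested, 7 were higher and 0 lower, with a median of 2.5. Cd74, the invariant chain that escorts class II molecules, was at 538, 419 and 761 in Spleen, 81.5, 189 and 43.0 in BM and 19.1 ± 9.63 in Blood (2.66 ± 0.42, adjusted p = 0.00362). H2-Eb1, a class II beta chain, was at 265, 160.0 and 412 in Spleen and at 61.8, 49.0 and 26.3 in BM (2.56 ± 0.38, adjusted p = 0.00239), and H2-Aa, an alpha chain, at 241, 157 and 316 against 51.4, 69.2 and 25.1 (2.33 ± 0.38, adjusted p = 0.00423). Ciita, the transactivator that class II transcription requires, was at 60.6, 42.7 and 57.6 in Spleen and at 13.7, 8.66 and 2.99 in BM (2.71 ± 0.58, adjusted p = 0.0239; 0.155, 0.0708 and 0.118 without Spleen replicate 1, 2 and 3). H2-Ab1, H2-Eb2 and Cd83 were the other 3. The count of 7 was 3, 4 and 3 without Spleen replicates 1, 2 and 3 and 9 without BM replicate 2. It was 0 with no filter on low values, with all 18 libraries in the fit and with a prior without a trend, and Cd74, H2-Eb1 and H2-Aa lost their calls in each of these (adjusted p up to 0.131, 0.0932 and 0.274). The class II sum was 1751, 1287 and 2240 in Spleen and 413, 640.0 and 260.0 in BM. Like the B-cell sum it was highest in BM replicate 2 and lowest in BM replicate 3 and Spleen replicate 2 of their tissues, while its highest Spleen library was replicate 3 and not replicate 1. The sum of the dendritic cell markers, which come from cells that also carry class II molecules, was higher in Spleen too (324 to 422, against 141 to 204 in BM). The part of B-cell or dendritic cell RNA in the class II difference was not tested. Of 21 genes of class I presentation, 0 passed in limma (2 at an unadjusted p under 0.05, 0 with voom weights; median 0.02).

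**Figure D4:**
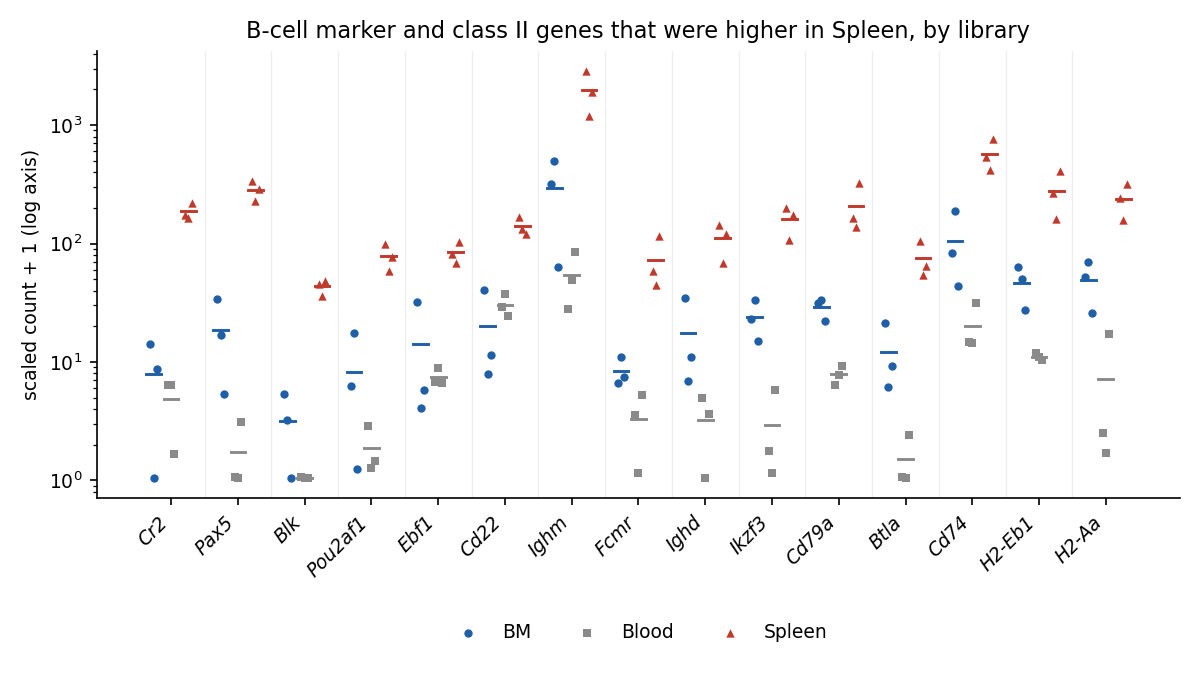
Scaled counts plus 1 (y axis, log scale) of 12 B-cell markers and 3 class II genes that were higher in Spleen, by library in BM (circles), Blood (squares) and Spleen (triangles); lines are means of 3 libraries. The 3 Spleen libraries lie above the 3 BM libraries in every gene shown, as in all genes that passed as higher. Blood is lowest in most of the genes shown.

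The higher genes with large differences outside the marker lists were of several kinds. Itpr3, an inositol trisphosphate receptor, was at 42.9, 36.4 and 64.6 in Spleen and 5.79, 0.0571 and 0.242 in BM (4.52 ± 0.86, adjusted p = 0.0123). Ablim1, an actin-binding LIM protein, was at 199, 160.0 and 210.0 in Spleen and at 41.8, 0.286 and 9.13 in BM (4.52 ± 0.89, adjusted p = 0.0142). BM replicate 1 was the highest BM library in both genes, and it also had 15207 genes detected, the most of its group.

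Rasgrp3 (4.44 ± 0.95), a Ras activator of B cells, Cd72 (3.97 ± 0.92), a B-cell coreceptor, Tcf7 (3.96 ± 0.91), a T-cell transcription factor, Snx30 (4.14 ± 0.95), a sorting nexin, and Bin1 (3.98 ± 0.85), a membrane-bending protein, were also higher. Hmgn1 (4.42 ± 0.80), a nucleosome-binding protein, and Rbmxl1 (4.72 ± 0.85), an RNA-binding protein, have close copies elsewhere in the genome and are uncertain for the single gene. Rbmxl1 had 0 counts in each BM library, and its means differed at least 82.1-fold by the floor. Fits without a Spleen library could not test it. Of the 17 alternatives that could, 3 lost its call (adjusted p up to 0.139). They were all 18 libraries in the fit, the fit without the Skin libraries and no filter on low values. Calls of 7 of these genes were lost without 1 or more libraries: Itpr3, Rasgrp3 and Hmgn1 without Spleen replicate 1 (adjusted p = 0.0564, 0.0929 and 0.0531) or 3 (0.0721, 0.0822 and 0.0586), Snx30 and Bin1 without any 1 Spleen library (0.0788 to 0.138 and 0.0618 to 0.135), and Cd72 and Tcf7 without BM replicate 3 (0.0542 and 0.0569) or any 1 Spleen library (0.109 to 0.145 and 0.0549 to 0.14). T and NK cell markers summed to 179 to 217 in Spleen and 52.6 to 103 in BM. The part of B-cell RNA or of T and NK cell RNA in these differences was not tested.

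Immediate early genes, which are transcribed within minutes of a stimulus, were higher as a minority of their list. Of 32 tested, 5 were higher and 0 lower; 27 differences were positive and the median was 1.02, against 0.15 over all genes. The 250 bases before the start are shown for 3 of the 5, because each holds TGACG, the core of the cAMP response element, in capitals where it stands on either strand, and 2 hold the whole element TGACGTCA (RefSeq, GRCm38.p6, 5′ to 3′).
Fosb, chr7:19310046-19310295, reverse strand: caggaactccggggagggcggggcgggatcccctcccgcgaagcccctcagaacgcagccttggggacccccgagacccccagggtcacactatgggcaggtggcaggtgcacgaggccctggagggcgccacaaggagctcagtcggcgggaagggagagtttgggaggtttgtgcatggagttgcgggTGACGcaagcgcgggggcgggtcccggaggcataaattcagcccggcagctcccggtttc
Plk2, chr13:110394794-110395043, forward strand: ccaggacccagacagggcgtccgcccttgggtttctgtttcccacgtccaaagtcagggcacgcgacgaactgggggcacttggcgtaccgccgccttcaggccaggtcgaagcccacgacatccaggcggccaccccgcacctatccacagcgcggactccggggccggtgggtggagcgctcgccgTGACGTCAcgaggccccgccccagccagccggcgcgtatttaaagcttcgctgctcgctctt
Dusp1, chr17:26508473-26508722, reverse strand: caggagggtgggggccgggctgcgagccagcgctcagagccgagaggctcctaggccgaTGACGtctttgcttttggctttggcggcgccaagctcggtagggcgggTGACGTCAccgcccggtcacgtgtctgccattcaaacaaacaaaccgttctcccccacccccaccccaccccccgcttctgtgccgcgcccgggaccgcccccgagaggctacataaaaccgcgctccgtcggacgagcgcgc
All 4 of the called genes with a promoter in the table held TGACG (Fosb, Plk2, Dusp1 and Atf3), as did 17.8% of all 32851 promoters, and TGACGTCA was found in Plk2 and Dusp1 and in 1.55% of all.

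Fosb, an AP-1 subunit, was at 123, 74.4 and 80.3 in Spleen, 3.39, 1.31 and 3.14 in BM and 79.1 ± 70.3 in Blood (4.71 ± 0.57, adjusted p = 0.000543), and was called in all 20 alternative analyses. Dusp1, a phosphatase that switches off MAP kinases, was at 1394, 978 and 1362 in Spleen, 330.0, 665 and 450.0 in BM and 1488 ± 529 in Blood (1.41 ± 0.28, adjusted p = 0.0142). Plk2, a stress-induced polo-like kinase, was at 31.8, 24.9 and 36.8 in Spleen and 4.85, 0.0571 and 2.56 in BM (3.5 ± 0.83, adjusted p = 0.0377), and Atf3, a stress-induced transcription factor, at 32.1, 35.4 and 38.5 against 4.75, 0.971 and 7.49 (2.98 ± 0.73, adjusted p = 0.0425). Blood lay at or above Spleen in Dusp1 and Plk2 (74.5 ± 5.66) and between the tissues in Atf3 (18 ± 8.40).

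Egr1, a zinc-finger factor, spread most: 241, 117 and 36.8 in Spleen and 13.2, 11.5 and 29.9 in BM (2.54 ± 0.60, adjusted p = 0.0347), with the lowest Spleen library close to the highest BM library. Fos was at 1091, 634 and 612 in Spleen and at 294, 500.0 and 305 in BM, without overlap, and did not pass (1.08 ± 0.29, adjusted p = 0.0649). Plk2 lost its call without any 1 Spleen library (adjusted p = 0.119 to 0.181), Atf3 without BM replicate 1 or any 1 Spleen library (0.0701 to 0.195), Egr1 without BM replicate 1 or 2 or Spleen replicate 1 or 2 (0.0713 to 0.205), and Dusp1 without BM replicate 1 (0.0593) or Spleen replicate 3 (0.0513). The count of 5 was 3 without BM replicate 1, 2 without any 1 Spleen library, 10 after quantile normalization and 1 with no filter on low values or a prior without a trend. Heat shock genes gave 0 calls in limma among 18 tested (4 at an unadjusted p under 0.05, 0 with voom weights; median 0.37). B-cell markers were higher in the same libraries, and their part in these differences was not tested.

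Among 26 tested genes of cytokines, chemokines and NF-kappaB feedback, 2 were higher and 0 lower (median 0.53). The share called was 7.69%, against 3.09% of all genes. Il1b, the gene of interleukin-1 beta, was at 3012, 2792 and 1676 in Spleen, 861, 759 and 1122 in BM and 3194 ± 552 in Blood (1.42 ± 0.27, adjusted p = 0.0131; 0.0585 without BM replicate 1). Csf1, which encodes macrophage colony-stimulating factor, was at 177, 216 and 175 in Spleen, 56.0, 91.0 and 85.7 in BM and 179 ± 40.8 in Blood (1.3 ± 0.27, adjusted p = 0.021; 0.0591, 0.058 and 0.0798 without BM replicate 1, Spleen replicate 1 and Spleen replicate 2). In both genes the 3 Spleen libraries lay above the 3 BM libraries, as in all genes that passed as higher. Another 2 genes of signalling feedback, chosen after their values were seen, passed with similar patterns: Socs3, which inhibits cytokine receptors, was at 170.0, 183 and 147 in Spleen against 41.3, 55.5 and 54.3 in BM (1.71 ± 0.27, adjusted p = 0.00353), and Tsc22d3, a glucocorticoid-induced gene, at 274, 276 and 382 against 121, 137 and 98.1 (1.38 ± 0.25, adjusted p = 0.00887). Of Toll-like receptors and adaptors (22 tested) only Cd180, a B-cell homologue of Tlr4, passed (2.70 ± 0.67, adjusted p = 0.0478), and not without BM replicate 2 or 3 or any 1 Spleen library (0.0543 to 0.227). The share called of this list was 4.55%, near that of all genes. The part of the B-cell markers in the differences of this paragraph was not tested.

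**Figure D5:**
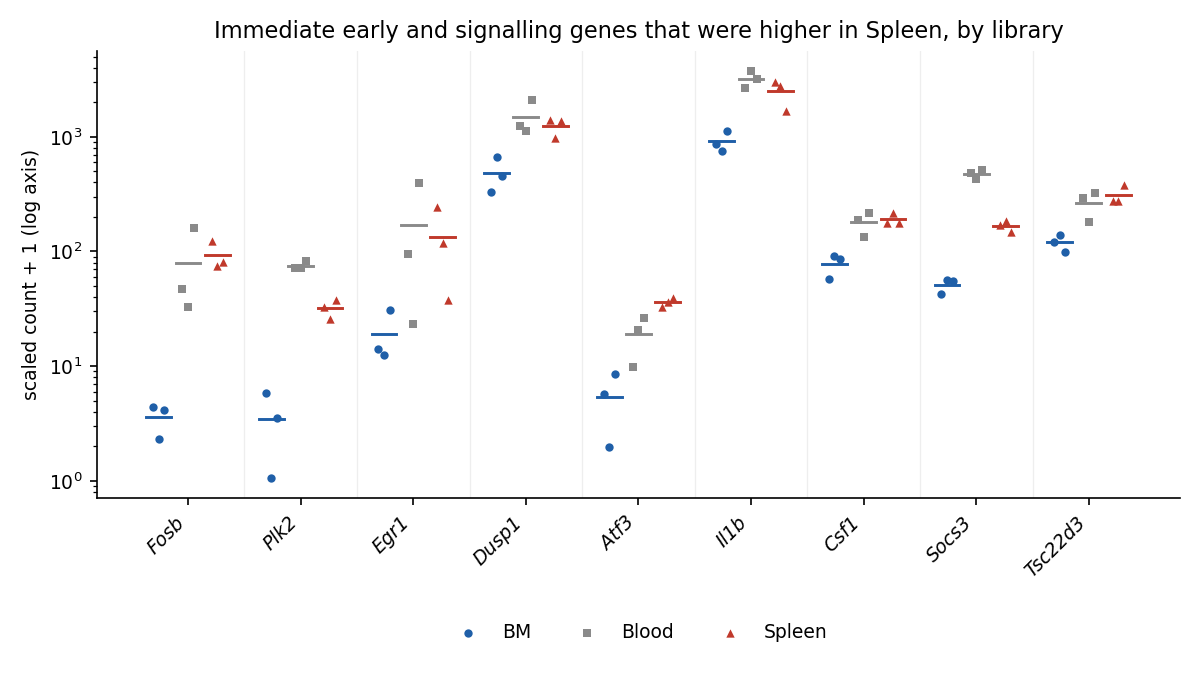
Scaled counts plus 1 (y axis, log scale) of 5 immediate early genes and 4 genes of cytokines and signalling that were higher in Spleen, by library in BM (circles), Blood (squares) and Spleen (triangles); lines are means of 3 libraries. The 3 Spleen libraries lie above the 3 BM libraries in each gene, closely so in Egr1 (36.8 against 29.9). No gene that passed had overlapping tissues. Blood lies nearer to Spleen than to BM in most of the genes shown.

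Genes of the translation machinery leaned to Spleen with few calls. Of 38 ribosomal protein genes tested, 37 had a positive difference (median 0.94), against 7075 of 12340 over all genes, and 3 passed. Rpl4 was at 431, 314 and 509 in Spleen and at 163, 184 and 169 in BM (1.25 ± 0.24, adjusted p = 0.0127), Rpl32 at 90.9, 65.6 and 132 against 30.0, 31.6 and 22 (1.71 ± 0.36, adjusted p = 0.0217), and Rpl11 at 109, 79.3 and 117 against 34.7, 26.1 and 47.3 (1.49 ± 0.34, adjusted p = 0.0299). The count of 3 was 6 without BM replicate 2 and 0 without Spleen replicate 3, and 9 after quantile normalization. Rpl4 was lost without BM replicate 1 (0.0514) or Spleen replicate 3 (0.0532), and Rpl11 and Rpl32 without either of these or Spleen replicate 1 (0.0566 to 0.143). Ribosomal protein genes have many near-identical pseudogene copies, and the values of single members are uncertain. Ribosome biogenesis genes had the higher median, 1.16, and 0 of 25 passed in limma (8 at an unadjusted p under 0.05, 0 with voom weights). B-cell markers were higher in the same 3 libraries, and their part in these differences was not tested.

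The remaining function lists gave 0 calls in limma and 0 with voom weights. Type I interferon response genes had a median of 0.03 (31 tested, 4 at an unadjusted p under 0.05), nuclear subunits of oxidative phosphorylation -0.01 (35 tested, 3 at that level) and the Bcl2 family 0.29 (22 tested, 4). ER stress genes had a median of 0.38 (21 tested, 6), circadian clock genes 0.35 (14 tested, 3) and B-cell helper factors 0.30 (6 tested, 1). Tnfsf13b, the B-cell survival factor BAFF, was at 15.2, 8.04 and 23.8 in Spleen and at 65.6, 11.4 and 54.8 in BM, with overlap (-1.22 ± 0.67, adjusted p = 0.398). Tnfsf13, which encodes the related factor APRIL, was too low to be tested. Interferon-induced GTPases and other targets of interferon gamma gave 1 call among 25, which was Ciita (4.0% called, near the 3.09% of all genes).

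Among the lower genes outside the lists, several of the largest differences were in genes at or near 0 in Spleen. Gpr27, an orphan receptor, was at 1.97, 0.0364 and 0.0473 in Spleen and at 103, 113 and 176 in BM (-6.44 ± 0.69, adjusted p = 0.000201). Inhba, which encodes the activin A subunit, was at 1.04, 5.85 and 2.98 in Spleen and at 98.0, 171 and 90.3 in BM (-4.92 ± 0.59, adjusted p = 0.000474). Acvrl1, a receptor of the same growth factor superfamily, was at 0.657, 1.64 and 6.57 against 100, 147 and 66.3 (-4.97 ± 0.67, adjusted p = 0.00112). These 3 genes and 4930438A08Rik, a gene with no assigned role (-5.77 ± 0.77, adjusted p = 0.0011), were called in each alternative analysis that could test them. All 20 alternatives could test Gpr27, Inhba and Acvrl1, but only 17 could test 4930438A08Rik.

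Adpgk, an ADP-dependent glucokinase, was at 10.3, 5.04 and 1.47 in Spleen and at 50.2, 471 and 247 in BM (-5.04 ± 0.75, adjusted p = 0.00219), a wide spread within BM. Gm45837 was called at -5.29 ± 1.25 although Spleen replicate 2 held 72.9 against 0.0422 and 0.0473 in the other Spleen libraries and 83.1 in the lowest BM library. Its call was lost without BM replicate 1 or 2 or Spleen replicate 1 or 3 (adjusted p = 0.122, 0.0995, 0.0566 and 0.107) and in 12 of the 20 alternative analyses. The Y-linked genes Ddx3y and Eif2s3y did not pass: Ddx3y was at 67.8, 77.1 and 118 in Spleen and at 104, 142 and 59.4 in BM (-0.17 ± 0.35), so all 6 libraries held transcripts of the Y chromosome.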

How the data were processed

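Per the labels' protocols, the Ovation Single Cell kit amplified RNA of sorted neutrophils, and a Genome Analyzer IIx gave single-end reads of 61 nt. The tools CASAVA, RSEM 1.3.1 and limma and the build mm10 are named in the submitters' processing notes; their order, roles and the annotation are not given in the sources used here. The deposited values are a signal on a linear scale for 32328 genes in 18 libraries. The table is named as TPM, but its values do not depend on gene length. As read from the numbers themselves, 0.5 was added to an estimated count and the sum was scaled by an effective library size, so no count model was used. The design, written for such a table of normalized values, was kept.

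Names came from GENCODE release 21 for the mouse (31899 genes). Genes at 1 or more in at least 3 of the 6 libraries were tested. A model of 2 group means (4 residual degrees of freedom) was fitted to log2(value + 1) with limma 3.58.1 in R 4.3.3, with a trended prior and Benjamini-Hochberg adjustment at 0.05 over all tested genes, and tested on simulated data. All adjusted p-values are from this fit. Tables and plots used Python 3.11.15, pandas 2.3.3, numpy 2.4.6 and matplotlib 3.10.9. The members and the lists were chosen with earlier results of these data known; list counts and medians carry no test. Named genes were, in each direction, the 12 protein-coding genes of largest difference that passed without overlap and reached a mean of 20 in either tissue, markers of other cells left out. Up to 4 members of each list with the smallest adjusted p, a fixed set (among them the sorting antigens, Mpo, Elane, Ltf, Camp, Cxcr2, Mki67, Il1b and Ddx3y) and members needed to account for a count were added; Xist was not analysed here, and some genes that these rules name are left out of the text. Folds against a group at 0 counts use 3 counts in each library as its floor, which allows for counting error only. Overlapping and antisense genes are uncertain, since the sources do not state strand use. Tissues share replicate numbers, and the labels do not say whether a number links animals; the alternatives were another pseudocount, filter, scaling, prior, set of libraries or weighting, the replicate block and the removal of each library.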

Additional observations from a re-analysis of the deposited data

How the results depend on the processing

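The 20 alternatives kept the sign of each named gene that passed (140): 18 were called under each alternative that could test them, 68 lost the call under at most 3 and 4 under more than 10. Of 101 named genes that did not pass, 30 passed under some alternative. Against 381 calls (114 higher, 267 lower) the count was lowest with all 18 libraries in the fit (62: 27 and 35), a prior without a trend (73: 32 and 41) and no filter on low values (77 of 19642 tested: 4 and 73), and highest with a weight per library (602: 243 and 359). Without a pseudocount 50 were higher of 263, with the quantile scaling 189, without the Skin libraries 162, and with voom weights on estimated counts, chosen after seeing the data, 59 of 309. Leaving out 1 library gave 191 to 352 calls, 30 to 157 higher and 161 to 230 lower. The replicate block gave 555 calls (176 higher, 379 lower), 377 of them shared with the fit without it; same-numbered libraries deviated with correlations of 0.103, -0.0338 and 0.0155, and 3 of 6 libraries correlated best with their own number, so the numbers were not taken as pairs. Medians over all genes ran from 0.01 (quantile) to 0.22 (no pseudocount). With 3 libraries a group and BM replicate 2 apart, genes that did not pass may still differ.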

Other observations

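Several gene families that no list held were counted after their values were seen; their counts describe these libraries and carry no test of the family. Genes of glycogen metabolism, through which neutrophils store glucose, gave 4 lower and 0 higher calls among 17 tested (median -0.61). They included Gys1 (glycogen synthase, -1.81 ± 0.39 SE), Gyg (glycogenin, which primes the chain, -2.08 ± 0.38) and Gbe1 (branching enzyme, -1.24 ± 0.29), with adjusted p of 0.0246, 0.0105 and 0.0333. Gys1 was at 13.8, 22.1 and 25.9 scaled counts in Spleen and at 57.3, 86.2 and 76.9 in BM. Each of these 3 lost its call without BM replicate 1 (adjusted p = 0.0547 for Gys1, 0.055 for Gyg and 0.0963 for Gbe1), and Gys1 and Gbe1 also without Spleen replicate 1 (0.102 and 0.116). Gys1 was lost without BM replicate 3 too (0.0657), and Gbe1 without BM replicate 2 (0.0628) or Spleen replicate 2 (0.112). In the pentose phosphate pathway, which makes NADPH, G6pdx (-1.78 ± 0.27, adjusted p = 0.00227) and Tkt (-1.81 ± 0.29, adjusted p = 0.00348) were lower among 11 tested and 0 were higher.

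Genes of actin assembly gave 11 lower and 0 higher calls among 35 tested (median -0.76). Dstn, an actin-depolymerising factor, was at 23.8, 18.6 and 15.5 in Spleen and at 214, 297 and 206 in BM (-3.57 ± 0.31, adjusted p = 2.94e-05), Vcl, the gene of vinculin, at 69.4, 117 and 132 against 382, 716 and 411 (-2.22 ± 0.31, adjusted p = 0.00127), and Capg, a filament-capping protein, at 31.3, 39.9 and 34.4 against 153, 193 and 159 (-2.23 ± 0.28, adjusted p = 0.000681). Of 9 annexins tested, 4 were lower and 0 higher: Anxa1, whose product limits neutrophil recruitment, was at 762, 1112 and 895 in Spleen and at 4057, 4536 and 3912 in BM (-2.19 ± 0.24, adjusted p = 0.000243), and Anxa3 at 6.05, 12.0 and 19.7 against 162, 159 and 162 (-3.71 ± 0.42, adjusted p = 0.000298). In both families the Spleen libraries lay under all BM libraries in each gene named here, as in all genes that passed as lower.

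Other lower genes, also chosen after their values were seen, included Abca13, a lipid transporter (18.6, 12.5 and 21.2 in Spleen; 438, 319 and 344 in BM; -4.34 ± 0.30, adjusted p = 4.25e-06), and Thbs1, thrombospondin 1 (33.8, 16.3 and 24.3; 226, 285 and 233; -3.32 ± 0.32, adjusted p = 8.94e-05). C3, the complement component, was at 244, 311 and 243 against 801, 1018 and 1046 (-1.84 ± 0.22, adjusted p = 0.000537). I830127L07Rik, a gene that the annotation does not list as protein-coding, was at most 2.37 in Spleen and at 181, 365 and 168 in BM (-7.00 ± 0.61, adjusted p = 2.94e-05).

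On the higher side, all 8 Gimap genes, GTPases of lymphocytes, had a positive difference (median 2.79), and Gimap1, Gimap6 and Gimap8 passed (2.49 ± 0.57, 2.66 ± 0.56 and 2.94 ± 0.61). None of the 3 passed without Spleen replicate 1 (adjusted p = 0.171, 0.153 and 0.0999) or 3 (0.131, 0.0532 and 0.053), and Gimap1 and Gimap6 did not without Spleen replicate 2 (0.077 and 0.0536), nor Gimap1 without BM replicate 1 (0.0768). Copies of this family share sequence, so single members are uncertain. Of 11 mitochondrially encoded genes tested 3 were higher: mt-Nd2, mt-Nd5 and mt-Nd6, subunits of complex I, at 1.42 ± 0.25, 1.45 ± 0.27 and 1.28 ± 0.24 (adjusted p = 0.00699, 0.0106 and 0.0118). Mitochondrial transcripts took 0.889%, 0.692% and 1.15% of the estimated counts in Spleen and 0.457%, 0.448% and 0.272% in BM. The sums of B-cell markers and of T and NK cell markers were higher in the same libraries as these genes, and their part was not tested.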
